A study of Homo sapiens with 24 samples.

Results

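The hypoxia response of PC3 cells was set against that of A549, HCT116 and T47D cells, gene by gene. PC3 is a line from prostate cancer, A549 from lung, HCT116 from colon and T47D from breast cancer. Each line was kept at 21% oxygen (normoxia) or at 0.5% oxygen for 16 h (hypoxia), and polyadenylated RNA was sequenced in 3 libraries per line and state, 24 in all. A549 and PC3 were grown in F12K medium, T47D in DMEM and HCT116 in McCoy's 5a, so line and medium cannot be told apart for T47D and HCT116. No cell carried an engineered change according to the labels, and each line stands for a single tumour. One edgeR fit with 8 groups gave, for every gene, the log2 fold change of hypoxia over normoxia in PC3, the mean of that change over the other 3 lines, and the first minus the second, here called the PC3 difference. Of 23106 gene symbols in the deposited counts, 16089 passed the filter on low counts and were tested. A gene was called at an adjusted p under 0.05 and a fold over 1.2. The PC3 difference was called for 319 genes.

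Cells adjust to low oxygen largely through the hypoxia-inducible factors (HIF). Oxygen-dependent prolyl hydroxylases (the EGLN genes) mark the HIF alpha subunits for destruction by the VHL complex, and in hypoxia the stabilised subunit pairs with ARNT and activates genes through the core motif RCGTG. Known targets include glucose transporters, nearly every enzyme of glycolysis, pH regulators, angiogenic factors and the hydroxylases themselves, which act as feedback.

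The markers of the lines were present with few exceptions. CTNNA1, which is deleted in PC3, had no count in the 6 PC3 libraries and 122 to 659 CPM elsewhere (counts scaled to library size), and the prostate lineage factor HOXB13 was at 70.6 to 127 CPM. PGR marked T47D and AKR1B10 marked A549. In HCT116, CDX2 was at 10.2 to 23.1 CPM but VIL1, CDH17 and KRT20 were all under 2 CPM in HCT116, and TFF1 in T47D did not exceed 6.92 CPM. Library totals ran from 22698584 to 62850747 counts, and the lowest PC3 normoxic library was the shallowest of all. T47D replicate 3 lay farthest from its group mean in both states, and since one dispersion per gene was shared by the 4 lines, it also entered the PC3 tests. The RNA came from whole cultures, so fewer expressing cells and less RNA per cell cannot be told apart.

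A set of genes induced by hypoxia in the other lines rose less in PC3, many HIF targets and glycolysis genes among them, and a smaller set was more induced or turned the other way. For 219 genes, 1.36% of those tested, the PC3 difference was below 0, and for 100 genes (0.622%) it was above 0. In PC3 itself 867 genes rose (5.39%) and 425 fell (2.64%). In the mean of the other lines 4377 genes rose (27.2%) and 3627 fell (22.5%). A mean over 3 lines is estimated with less error than the response of a single line, so these last counts do not compare the size of the responses.

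Of the 4377 genes that rose in the mean of the other lines, 210 (4.8%) had a called PC3 difference below 0. Of the 858 that rose there more than 2-fold, 146 (17%) did. Over these 858 genes the median log2 fold change was 0.60 in PC3, 1.04 in A549, 1.54 in HCT116 and 1.41 in T47D. The genes were chosen for high values in the last 3, which raises those medians and not that of PC3, so the medians are a description and no comparison of size. PC3 reached a call upward in 239 of the 858 and a call downward in 1. For the 159 genes that rose more than 4-fold, the PC3 median was 0.75, and 48 of these genes (30.2%) had a called difference below 0. The same choice favours a difference below 0. On the side of repression, the 931 genes that fell more than 2-fold elsewhere had a median of -0.55 in PC3 and -0.86, -1.89 and -1.09 in A549, HCT116 and T47D, and 23 of them (2.47%) had a called difference.

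**Figure D1:**
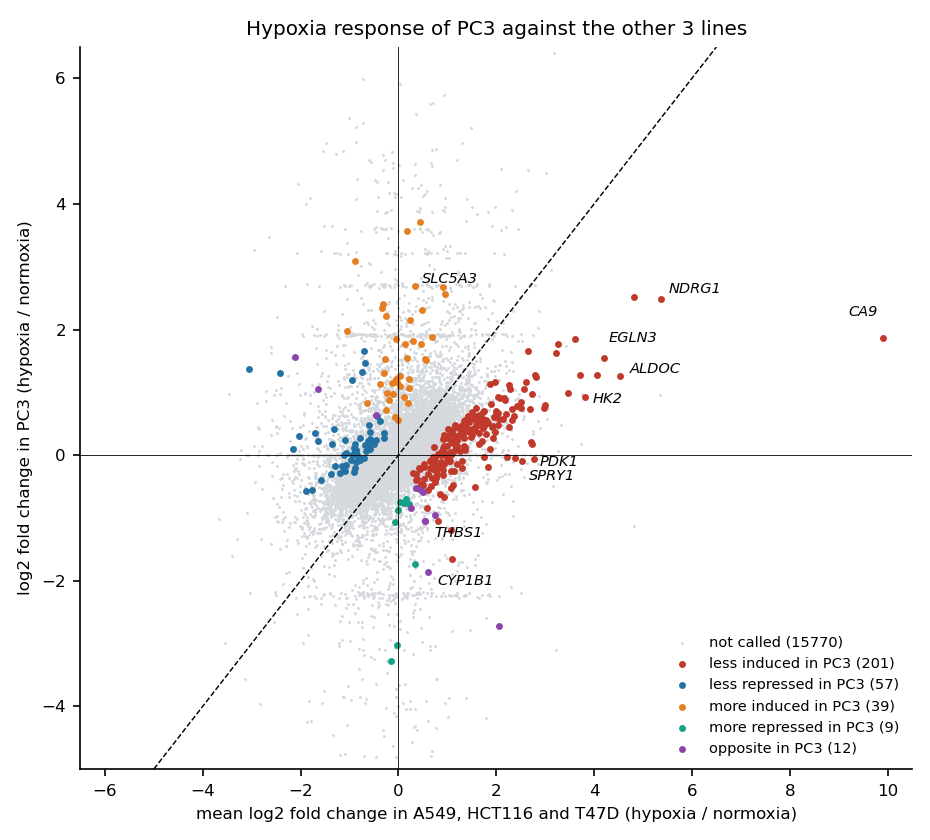
Log2 fold change of hypoxia over normoxia in PC3 (y axis) against the mean of A549, HCT116 and T47D (x axis), 1 point per gene tested, with the dashed line marking equal responses; 7 genes lie outside the axes. The 201 less induced genes (red) lie to the right of the line and mostly above 0 in PC3, and the 39 more induced genes (orange) cluster near 0 on the x axis.

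By class, 201 genes were less induced in PC3, 57 less repressed, 39 more induced, 9 more repressed and 12 opposite, and 1 gene (ATP1B3, named after its values were seen) fitted none of these. Of the 201 less induced genes, 48 still rose in PC3 and 153 had no called change there, among them 61 with a fitted change under 0. None of the 57 less repressed genes fell in PC3 by the same rule in edgeR, DESeq2 or limma voom without sample weights, 4 did in limma voom with sample weights, and 3 fell at an unadjusted p under 0.05 in edgeR. Of the 39 more induced genes, 32 had no called change in the mean of the other lines. At least 1 CPM in the higher state of every line was reached by 268 of the 319 genes. That rule does not look at the lower state, so a line can pass it without the transcript in normoxia, as T47D did for CA9.

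These counts depended on single libraries. Without PC3 hypoxia replicate 1 only 15 genes were called higher and 95 lower in PC3. The genes called lower numbered 98 without PC3 hypoxia replicate 2, 126 without hypoxia replicate 3, and 105 without normoxia replicate 1 as well as without normoxia replicate 2. The genes called higher numbered 58 without PC3 hypoxia replicate 2, 27 without normoxia replicate 1, 23 without normoxia replicate 2, 60 without A549 hypoxia replicate 2, 159 without T47D hypoxia replicate 3 and 175 without T47D normoxia replicate 3. The genes responding less numbered 98, 110 and 135 without PC3 hypoxia replicates 1, 2 and 3, and 106 and 101 without normoxia replicates 1 and 2, in place of 258. Scaling to total counts gave 159 lower and 117 higher in place of 219 and 100. The 3 reference lines also weighed differently: against A549 alone 69 genes were lower and 53 higher in PC3, against HCT116 alone 1172 and 1227, and against T47D alone 265 and 97.

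The less induced genes were led by CA9, ALDOC, NDRG1, HK2, EGLN3, SPRY1, PDK1 and FAM115C, the 8 with the largest difference among genes expressed in every line. The promoters of the first 3 of them with a usable RefSeq entry are shown with those of the 2 leading more induced genes, because HIF acts through a short motif that can be read in the sequence. Each run covers the 150 bases before the RefSeq start (GRCh38.p14), written 5′ to 3′ on the strand of the gene, with ACGTG or GCGTG, or their reverse complements CACGT and CACGC, in capitals.
CA9, chr9:35673778-35673927, plus strand: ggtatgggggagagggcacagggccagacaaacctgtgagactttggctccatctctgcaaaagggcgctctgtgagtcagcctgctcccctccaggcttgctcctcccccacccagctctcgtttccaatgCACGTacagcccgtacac
ALDOC, chr17:28576896-28577045, minus strand: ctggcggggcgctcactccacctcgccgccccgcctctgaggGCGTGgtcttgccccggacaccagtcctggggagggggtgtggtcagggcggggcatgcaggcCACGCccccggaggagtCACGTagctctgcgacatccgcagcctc
HK2, chr2:74833977-74834126, plus strand: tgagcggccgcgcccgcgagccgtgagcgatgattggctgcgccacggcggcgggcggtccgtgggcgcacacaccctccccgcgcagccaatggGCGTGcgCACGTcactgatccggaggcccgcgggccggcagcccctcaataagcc
SLC5A3, chr21:34073428-34073577, plus strand: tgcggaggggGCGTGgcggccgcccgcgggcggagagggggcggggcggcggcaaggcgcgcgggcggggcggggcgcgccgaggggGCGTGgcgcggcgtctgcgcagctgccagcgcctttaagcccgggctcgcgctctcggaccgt
PALM3, chr19:14062077-14062226, minus strand: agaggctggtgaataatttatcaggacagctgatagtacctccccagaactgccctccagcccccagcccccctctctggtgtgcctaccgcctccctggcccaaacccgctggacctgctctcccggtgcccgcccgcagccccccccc
The stretch of CA9 held 1 match, that of ALDOC 3 and that of HK2 2. That of SLC5A3 held 2. That of PALM3 held none, but the RefSeq window of PALM3 held 3 farther upstream. Over the whole RefSeq window (250 bases before the start to 50 after), 111 of the 157 less induced genes with an entry held the motif on either strand (70.7%), against 61.7% of the genes induced in the mean of the other lines, 60.8% of all genes tested and 54.5% of the more induced genes. A CACGTG run counts on both strands, and a match to these letters is a description of the window only.

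CA9, which encodes a membrane carbonic anhydrase that handles acid at the cell surface, was hardly expressed in hypoxic PC3. In PC3 it was at 1.284, 1.142 and 1.195 CPM in normoxia and 4.83, 3.73 and 4.54 CPM in hypoxia. Hypoxic A549 had 129.5, 107.6 and 106.1 CPM, hypoxic HCT116 17.3, 18.8 and 17.2 CPM, and hypoxic T47D 42.1, 34.2 and 29.8 CPM. All hypoxic libraries of the other lines thus lay above all PC3 libraries, while normoxic PC3 libraries lay above all other normoxic libraries, of which the highest was at 0.551 CPM. The gene rose 3.63-fold in PC3 (log2 1.86 ± 0.31 SE, adjusted p = 0.000807). In T47D no normoxic library had a count, and against a floor of 3 counts per library the rise was at least 659-fold. The fitted PC3 difference of -8.04 ± 0.48 (adjusted p = 5.52e-10) therefore depends on the prior count, and with A549 and HCT116 alone as reference it was -6.08. An exon of CA9 overlaps ARHGEF39 on the other strand, and reads of such pairs are uncertain because the strand setting of the counting is not given in the sources used here.

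ALDOC, an aldolase of glycolysis, likewise ended low. PC3 had 9.82, 12.3 and 11.1 CPM in normoxia and 28.1, 23.9 and 27.7 CPM in hypoxia, while HCT116 went from 9.30, 12.4 and 29.3 to 254.1, 527.4 and 397.1 CPM. Normoxic PC3 and HCT116 overlapped, and their hypoxic libraries did not. The PC3 difference of ALDOC was -3.28 ± 0.37 (adjusted p = 8.54e-06), from log2 fold changes of 1.26 in PC3 and 4.99, 4.53 and 4.10 in A549, HCT116 and T47D. EGLN3, the hydroxylase that HIF itself induces, was at 0.953, 1.40 and 2.09 CPM in normoxic and 6.98, 3.03 and 3.26 CPM in hypoxic PC3, against 305.0 to 355.6 CPM in hypoxic A549. PC3 had the lowest EGLN3 level of the 4 lines in both states, and the difference was -2.65 ± 0.36 (adjusted p = 0.000132).

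HK2, NDRG1, SPRY1 and PDK1 showed the other pattern: PC3 started high. HK2 encodes the hexokinase that commits glucose to glycolysis in many tumours. Normoxic PC3 had 178.6, 228.7 and 140.0 CPM of HK2, against at most 2.67 in A549, 61.2 in HCT116 and 21.2 in T47D. In hypoxia PC3 reached 334.9, 336.0 and 370.4 CPM, above A549 (41.5 to 52.7) and T47D (127.0 to 148.9) and below HCT116 (470.6 to 592.7). HK2 thus rose 1.90-fold in PC3, with a PC3 difference of -2.89 ± 0.33 (adjusted p = 8.54e-06), although its hypoxic level there was the second highest.

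PDK1 encodes a kinase that shuts pyruvate dehydrogenase and so keeps pyruvate from the mitochondria. It was at 60.3, 51.2 and 68.1 CPM in normoxic and 70.7, 64.9 and 66.3 CPM in hypoxic PC3, so the 2 states overlapped. In the other lines every hypoxic library lay above every normoxic one, with T47D going from 10.7 to 15.7 CPM up to 121.4 to 142.6. The log2 fold change of PDK1 in PC3 was 0.17 (adjusted p = 0.631) and the difference -2.56 ± 0.23 (adjusted p = 2.72e-07). SPRY1, a feedback inhibitor of receptor tyrosine kinase signalling, was at 35.7, 27.6 and 27.3 CPM in normoxic and 25.6, 28.0 and 31.4 CPM in hypoxic PC3. Its highest level in any library of the other lines was 16.7 CPM, in hypoxic HCT116, and its PC3 difference was -2.61 ± 0.28 (adjusted p = 5.29e-06).

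NDRG1, a stress-induced gene linked to differentiation, still rose in PC3. It went from 326.5, 310.6 and 270.1 to 1819, 1334 and 1907 CPM there, while T47D went from 1.83, 2.44 and 4.03 to 252.1, 338.9 and 264.7 CPM. Hypoxic PC3 and A549 libraries overlapped (1594 to 1919 CPM in A549), and normoxic PC3 lay above every normoxic library of the other lines. The PC3 difference of NDRG1 was -2.90 ± 0.37 (adjusted p = 5.06e-05). FAM115C (now TCAF2), which encodes a regulator of TRP channels, was at 6.30 to 8.62 CPM in normoxic and 16.7 to 21.7 CPM in hypoxic PC3, the highest of the 4 lines in both. Its difference of -2.43 ± 0.43 (adjusted p = 0.00253) rested on A549, where normoxic libraries held 0 to 0.0983 CPM, and was -1.37 (adjusted p = 0.057) without A549 in the reference.

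**Figure D2:**
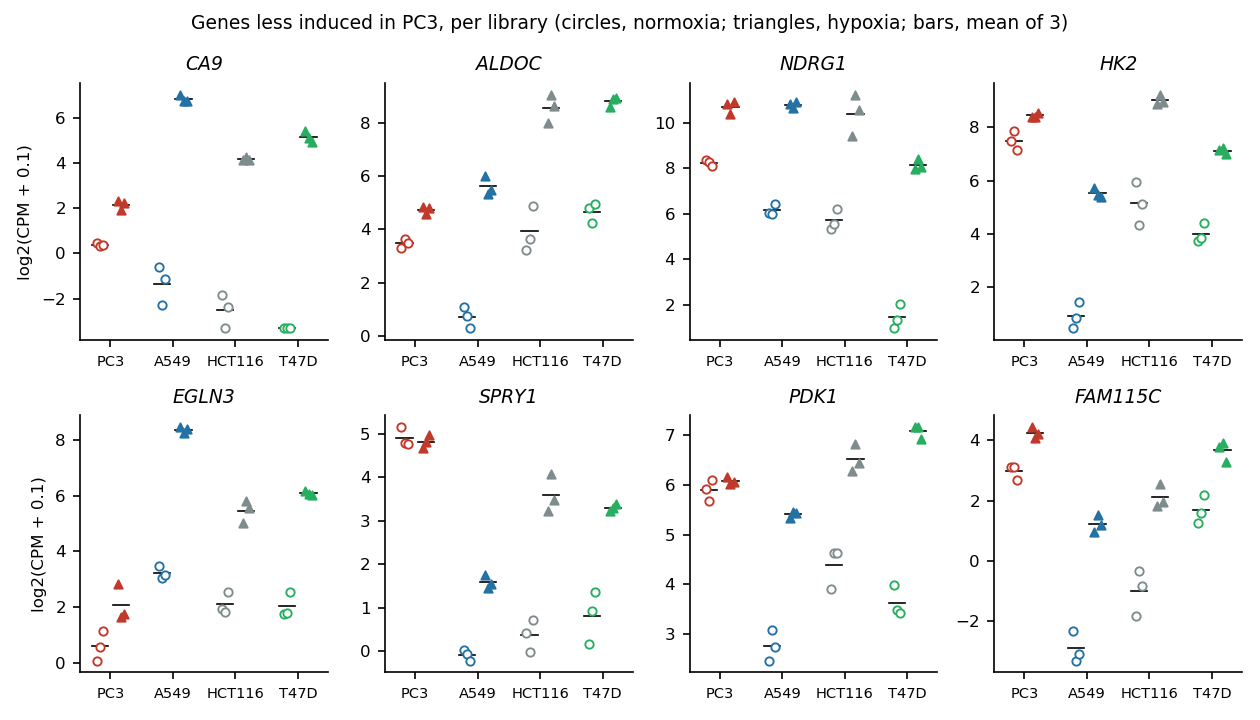
Log2(CPM + 0.1) of the 8 leading less induced genes in each library (y axis), by line (x axis), with circles for normoxia, triangles for hypoxia and bars for the mean of 3. PC3 (red) starts above the other lines in NDRG1, HK2, SPRY1, PDK1 and FAM115C and ends below them in CA9, ALDOC and EGLN3.

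Both patterns recurred over the class. The normoxic mean of PC3 was the highest of the 4 lines for 84 of the 201 less induced genes (41.8%), against 32.3% of the genes induced in the mean of the other lines and 22.8% of all genes tested. The hypoxic mean of PC3 was the lowest for 71 of them (35.3%), against 25.8% and 23.5%. The PC3 levels enter the difference that defined the class, so these shares describe it and test nothing.

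The 48 genes of the consensus list of HIF targets moved together. All 48 were called up in the mean of the other lines and 32 in PC3. In this list 31 had a called PC3 difference, each below 0, where 1.36% of all genes did. The study tested each line by itself and reported all 48 as induced in every line, PC3 included. The 32 is thus a count of calls in this shared fit. For every consensus gene except STC2, all hypoxic PC3 libraries lay above all normoxic ones. The share of all tested genes with such a separation was not computed, so this describes the list only. The list was drawn by the study in part from these libraries, so its direction is not independent evidence. The median log2 fold change was 0.81 in PC3, 1.55 in A549, 2.33 in HCT116 and 1.93 in T47D, and the median difference was -1.14, against 0.0054 over all genes tested. The fitted change in PC3 was below that in HCT116 for 48 of the 48, below that in T47D for 46 and below that in A549 for 39. Against single lines the difference was called below 0 for 42, 26 and 7 genes in HCT116, T47D and A549. Among all 16089 genes tested it was called below 0 for 1172, 265 and 69, so the reference lines differed in calls beyond this list. The 31 calls became 22 to 34 when any 1 library was left out and 33 without T47D replicate 3 in both states, but 13 and 11 when replicate 1 or replicate 2 was left out of every group.

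Within that list the cell death and mitophagy receptor BNIP3L, the histone demethylase KDM3A and the lactate exporter SLC16A3 were among those called. BNIP3L was at 101.5 CPM in normoxic and 150.3 CPM in hypoxic PC3 (means of 3), and at 79.0 and 424.1 CPM in A549. KDM3A went from 54.4 to 97.6 CPM in PC3 and from 28.9 to 283.3 CPM in HCT116. The remaining 17 genes missed the call, among them BHLHE40, a transcriptional repressor of the clock and of differentiation, with a log2 fold change of 1.82 in PC3, between 1.46 in A549 and 4.72 in HCT116. PNRC1, a nuclear receptor coregulator, was at 1.95 in PC3 and 1.5 in A549.

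**Figure D3:**
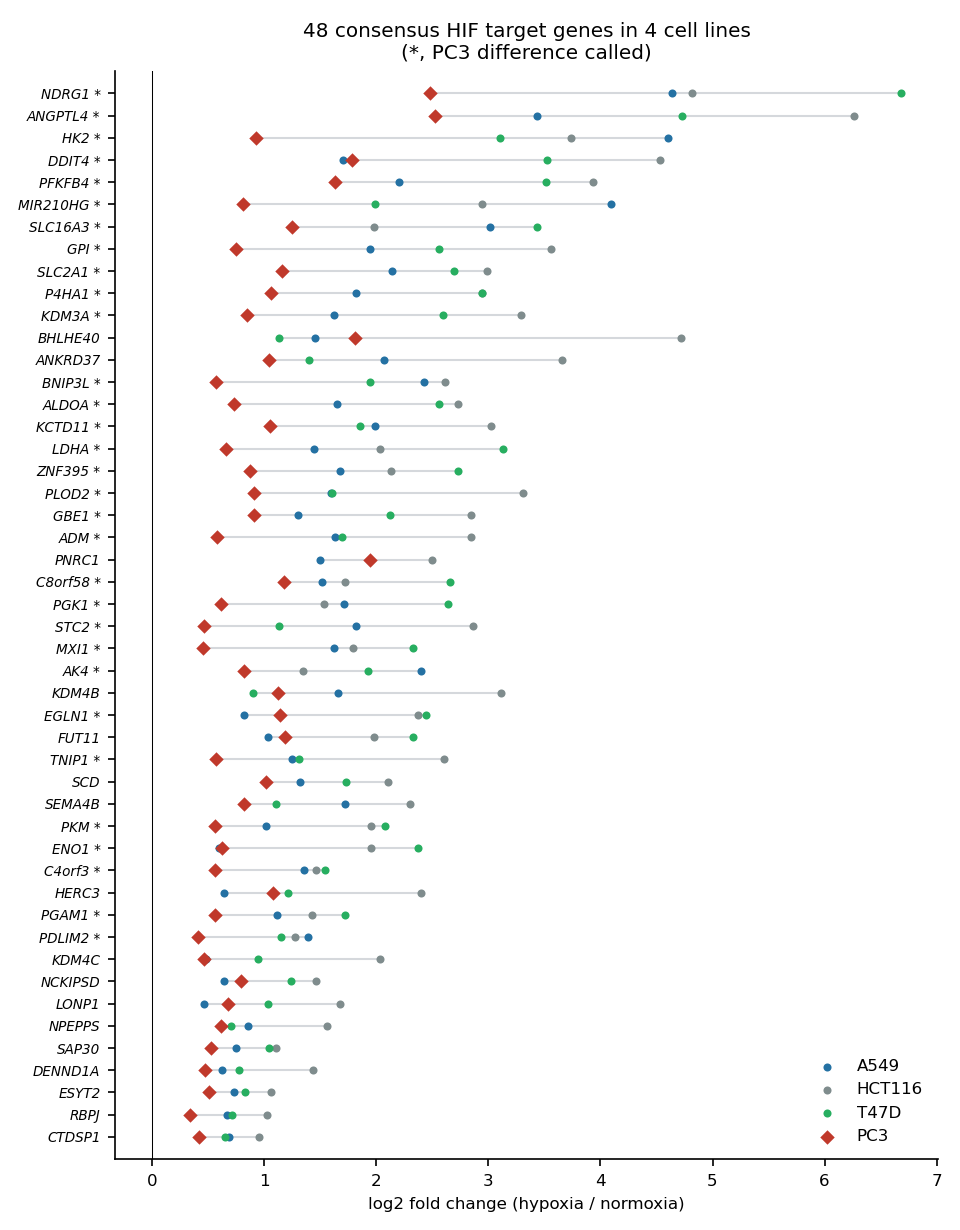
Log2 fold change of hypoxia over normoxia (x axis) of the 48 consensus HIF target genes (y axis, ordered by the mean of the other lines) in A549, HCT116, T47D (circles) and PC3 (red diamonds), with a star at the 31 genes whose PC3 difference was called. All points lie right of 0, and PC3 is the lowest of the 4 lines for 38 genes.

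Glycolysis genes were often less induced. Of 24 genes of glucose uptake and glycolysis tested, 18 (75%) were less induced in PC3. A called difference below 0 was found for 1.36% of all genes and 17% of those that rose more than 2-fold elsewhere. All 24 had a fitted difference below 0. Against single lines the difference was called below 0 for 20, 18 and 4 of the 24 genes in HCT116, T47D and A549. Among all 16089 genes tested the same held for 1172, 265 and 69. The median log2 fold change was 0.65 in PC3 against 1.40, 2.07 and 2.36 in A549, HCT116 and T47D, and PC3 had the lowest of the 4 for 19 genes. Of the 24 genes, 10 are also on the consensus list, and all 10 were called. The 18 calls became 13 to 19 without any 1 library, and 6 and 7 without replicate 1 or replicate 2 of every group.

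The steps of the pathway can be followed in order. The glucose transporter SLC2A1 rose in PC3 from 265.7 to 592.6 CPM, and its PC3 difference was -1.45 ± 0.23 (adjusted p = 0.000874). GPI, the isomerase after hexokinase, had a PC3 difference of -1.95 ± 0.25, and ended at 705.0 CPM in hypoxic PC3 against 3530 in A549 and 3413 in HCT116. The phosphofructokinase genes PFKL and PFKP had differences of -1.07 and -1.30, and PFKFB4, which makes their activator, -1.58.

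Lower down, GAPDH was at 3131 CPM in normoxic and 3827 CPM in hypoxic PC3 (log2 fold change 0.29, adjusted p = 0.38), while in HCT116 it went from 2992 to 10126 CPM. LDHA, which turns pyruvate into lactate, was at 3375 CPM in normoxic PC3, the highest of the 4 lines, and rose to 5322 CPM, where A549 reached 7727. Its difference was -1.54 ± 0.22 (adjusted p = 0.000203). PGK1 and ENO1 also had called differences, of -1.35 and -1.02, although the PC3 response of neither passed the test (adjusted p = 0.091 and 0.097). The log2 fold change of ENO1 was 0.618 in PC3 and 0.594 in A549, against 1.95 in HCT116 and 2.37 in T47D. Over the 24 genes, PC3 had the highest normoxic mean for 11 and the lowest hypoxic mean for 8.

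Among the HIF subunits and oxygen sensors, 3 of 10 tested genes (30%) were called, all less induced, against 1.36% of all genes with a called difference below 0. EGLN1, the main oxygen-sensing hydroxylase, rose from 81.8 to 180.2 CPM in PC3, with a difference of -0.74 ± 0.19 (adjusted p = 0.042). Its log2 fold change of 1.14 in PC3 was above that in A549 (0.816) and below those in HCT116 (2.37) and T47D (2.44). CITED2, which competes with HIF for its coactivators, was at 24.5 CPM in normoxic and 33.6 CPM in hypoxic PC3 and at 44.9 and 285.2 CPM in T47D, a difference of -1.81 ± 0.25 (adjusted p = 0.000159). HIF1A, which encodes the HIF-1 alpha subunit, was at 450.8 CPM in normoxic and 422.5 CPM in hypoxic PC3, the highest mean of the 4 lines in both states. Its log2 fold changes were -1.35 in A549, -0.32 in HCT116 and -0.64 in T47D, and its PC3 difference of 0.68 ± 0.18 missed the threshold (adjusted p = 0.0558). EPAS1, which encodes HIF-2 alpha, ARNT and VHL had PC3 differences of -0.36, -0.40 and 0.08, none called. Transcript levels do not give the amount of the proteins, and protein data were not analysed here.

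Lists for other functions known to respond to HIF held fewer calls, to be read against 1.36% of all genes, 4.8% of the genes that rose in the mean of the other lines and 17% of those that rose there more than 2-fold. Of 8 pH genes, 2 were less induced, CA9 and SLC16A3. Of 11 collagen hydroxylases and lysyl oxidases, 4 were: P4HA1, P4HA2, PLOD1 and PLOD2, with differences of -1.5, -1.10, -1.04 and -1.26. Of 16 secreted factors, 7 were, including VEGFA, the main angiogenic factor. VEGFA was at 76.3 CPM in normoxic and 117.0 CPM in hypoxic PC3 and at 29.9 and 123.9 CPM in T47D, a difference of -1.04 ± 0.24 (adjusted p = 0.0208), so PC3 again began highest. IGFBP3 was also called, with T47D means under 1 CPM in both states.

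BNIP3, a mitophagy receptor and partner of BNIP3L, rose from 68.3 to 165.8 CPM in PC3 and from 43.9 to 561.6 CPM in T47D (difference -1.51 ± 0.16, adjusted p = 3.67e-06). Both were the only called genes of 10 on the mitophagy and autophagy list. Of 14 histone demethylases, KDM3A alone was called, and the list median was 0.52 in PC3, 0.52 in A549, 1.27 in HCT116 and 0.64 in T47D. Of 27 cholesterol genes, 3 were less induced, INSIG1, MVD and LSS, and of 16 lipid genes 1, ANGPTL4, shares of 11.1% and 6.25% that lie between those of all induced genes and of those induced more than 2-fold. Of 5 metallothioneins tested, which bind zinc and copper, 2 were called, MT2A and MT1X. MT2A was at 119.5 CPM in normoxic and 113.5 CPM in hypoxic PC3, and rose in A549 from 74.1 to 226.7 CPM. MT1X had log2 fold changes of -0.66 in PC3, 2.93 in A549, 0.525 in HCT116 and -0.67 in T47D. Without A549 in the reference 0 metallothioneins were called lower. THBS1 was the 1 call among 24 matrix genes.

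Many other lists held few or no calls. No PC3 difference was called among 20 p53 targets, 20 NF-kB targets and cytokines, 23 interferon-stimulated genes, 39 DNA replication genes, 11 iron and heme genes, 51 ribosome biogenesis factors, 84 cytosolic ribosomal proteins, 37 complex I genes and 42 genes of the remaining respiratory complexes. The ATF4 and unfolded protein list had 1 call of 20 (PSPH, a serine synthesis enzyme, less repressed) and the mitochondrial ribosomal proteins 1 of 74 (MRPS6). Over the 327 genes of the lists without a call, 26 were lower and 18 higher in PC3 at an unadjusted p under 0.05 in edgeR. DESeq2 called 5 of the 327 lower and 1 higher, limma voom without sample weights 1 lower, and limma voom with sample weights 36 lower and 87 higher. Of the mitochondrial ribosomal proteins, which build the ribosome that translates the mitochondrial genome, limma voom with sample weights called 46 higher in PC3, and the fit without T47D replicate 3 called 7. Their median log2 fold change was -0.38 in PC3, -0.45 in A549, -0.998 in HCT116 and -0.38 in T47D.

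**Figure D4:**
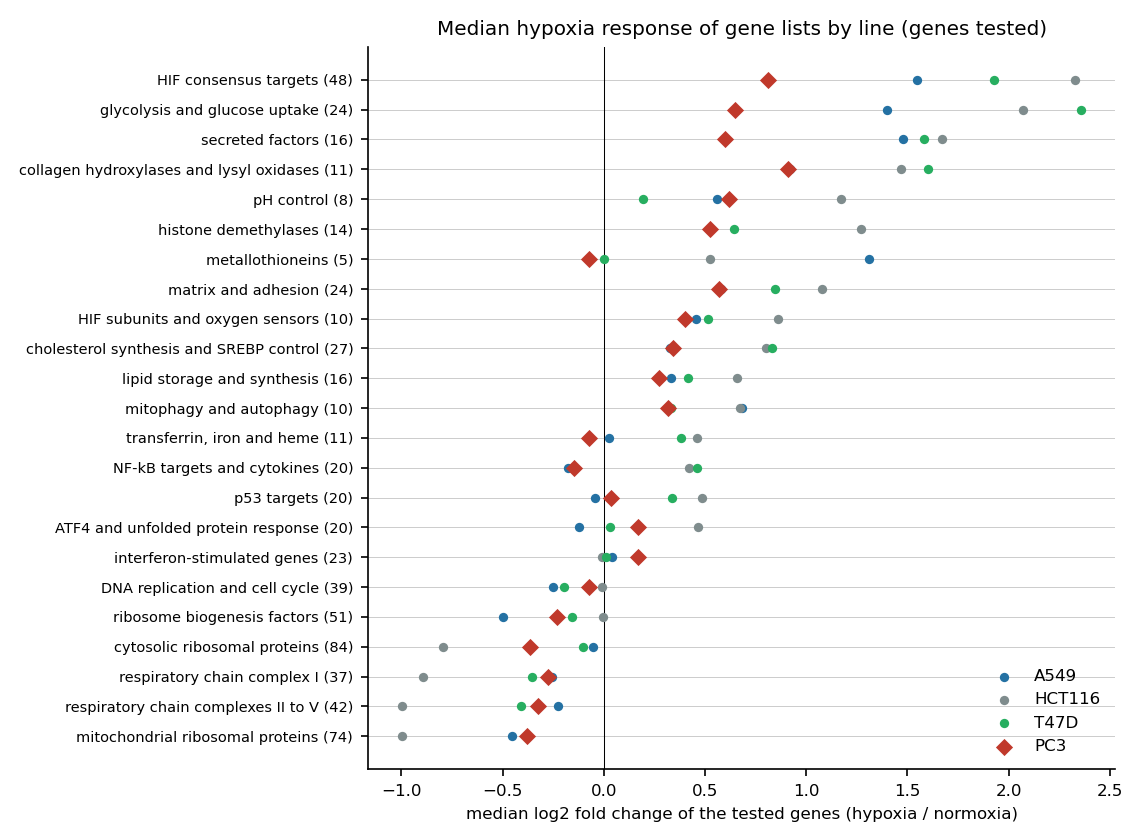
Median log2 fold change of hypoxia over normoxia (x axis) of the tested genes of 23 lists (y axis, number tested in brackets), with PC3 as red diamonds and the other lines as circles. PC3 lies left of all 3 other lines for the HIF consensus targets, glycolysis and the secreted factors. By a smaller margin it is also leftmost for HIF subunits, collagen hydroxylases, mitophagy, lipid, matrix, iron and heme, and metallothionein genes. It lies among the other lines for the cytosolic ribosomal proteins and both respiratory lists.

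The median difference of the 57 less repressed genes was 0.95, from a median log2 fold change of 0.11 in PC3 and -0.88 in the mean of the other lines. IFRD1, a stress-responsive transcriptional coregulator, was the 1 named gene of this class called in all 18 other settings and without each single library. With 1 replicate number left out of every group, IFRD1 was called in 1 of 3 fits. It was at 131.4, 119.6 and 149.8 CPM in normoxic and 82.7, 91.2 and 96.0 CPM in hypoxic PC3, and in A549 at 75.4, 79.2 and 55.5 and then 19.9, 15.7 and 11.5 CPM. The states did not overlap in either line, and PC3 lay above the other lines in both. The PC3 difference of IFRD1 was 1.33 ± 0.24 (adjusted p = 0.00281), though its own change in PC3 did not pass (log2 -0.57, adjusted p = 0.0869). An exon of LSMEM1 lies on the same strand of IFRD1, so their reads are uncertain.

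The other 7 named genes of the class were MROH6 (1.34), EEF1E1 (1.21), NDUFAF5 (1.17), ENGASE (1.12), GULP1 (1.10), LSM10 (1.07) and GPR89A (1.07), with the PC3 difference on the log2 scale in brackets. EEF1E1 encodes a scaffold of the tRNA synthetase complex, and NDUFAF5 an assembly factor of respiratory complex I. NDUFAF5 was at 23.9, 22.9 and 37.5 CPM in normoxic and 21.8, 21.7 and 20.1 CPM in hypoxic PC3, and fell in HCT116 from 34.8, 56.4 and 26.99 to 7.61, 5.15 and 6.57 CPM. Without HCT116 in the reference the differences of EEF1E1, NDUFAF5, ENGASE, GULP1, LSM10 and GPR89A were no longer called (adjusted p = 0.271, 0.358, 0.134, 0.185, 0.241 and 0.152). That of MROH6 was not called without A549 in the reference (adjusted p = 0.0699). Without T47D those of MROH6, ENGASE, GULP1 and LSM10 were not called (adjusted p = 0.0723, 0.0612, 0.0544 and 0.0624). Without PC3 hypoxia replicate 1 none of the 7 was called (adjusted p from 0.0695 for NDUFAF5 to 0.202 for GPR89A). Without hypoxia replicate 2 only GPR89A was called (adjusted p = 0.0206). Without hypoxia replicate 3 only NDUFAF5 and GULP1 were (adjusted p = 0.0353 and 0.0232). Leaving out any single PC3 library lost the call of MROH6. LSM10 was called in 6 of the 24 fits with 1 library left out. GPR89A has near-identical copies in the genome, so its reads are uncertain.

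More induction in PC3 was seen mostly in genes with no called change in the mean of the other lines. SLC5A3, the sodium-coupled importer of the osmolyte myo-inositol, was at 76.9, 75.4 and 81.0 CPM in normoxic and 957.5, 305.9 and 239.1 CPM in hypoxic PC3. In T47D it was at 29.9, 20.6 and 36.9 and then 30.4, 30.6 and 27.1 CPM, and in A549 it went from 32.2, 37.3 and 44.2 to 56.7, 60.4 and 105.5 CPM. All hypoxic PC3 libraries lay above all others, with replicate 1 far above the other two. The PC3 difference was 2.36 ± 0.42 (adjusted p = 0.00242) and 1.496 (adjusted p = 0.0222) without PC3 hypoxia replicate 1. Exons of SLC5A3 and MRPS6 overlap on the same strand, both were called more induced, and their reads are uncertain.

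PALM3, of the paralemmin family of membrane-bound proteins, was at 4.89, 6.35 and 6.003 CPM in normoxic and 33.9, 23.6 and 19.8 CPM in hypoxic PC3, where HCT116 reached 17.9 CPM at most. Its difference was 1.93 ± 0.32 (adjusted p = 0.00117). KCNK5, a potassium channel that sets the resting potential, was at 11.6, 9.35 and 8.09 CPM in normoxic and 54.5, 28.7 and 21.4 CPM in hypoxic PC3, a difference of 1.90 ± 0.31 (adjusted p = 0.00111). EHF, an epithelial ETS transcription factor, was at 52.3, 43.6 and 44.3 and then 190.8, 82.1 and 74.3 CPM in PC3, and in A549 it went the other way, from 10.8, 7.59 and 8.2 to 4.69, 3.90 and 3.24 CPM. The PC3 difference of EHF was not called without A549 in the reference (adjusted p = 0.0633). Against HCT116 and T47D alone it was not called either (adjusted p = 0.0738 and 0.151). In all 3 genes the hypoxic PC3 libraries lay above the normoxic ones and replicate 1 was the highest.

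ZNF114, LOC113230, C2orf72 and TINCR completed the named more induced genes, with PC3 differences of 1.83, 1.80, 1.77 and 1.62. TINCR, known from epidermal differentiation, was at 0.331, 0.792 and 0.597 CPM in normoxic and 5.16, 2.91 and 2.75 CPM in hypoxic PC3, below T47D (23.7 to 31.1 CPM in hypoxia). For C2orf72 and ZNF114 normoxic PC3 was under 1 CPM too. C2orf72 went from 0.153 to 1.03 CPM in PC3 (means of 3), below hypoxic A549, HCT116 and T47D (10.7, 9.41 and 14.0 CPM). It also rose in the mean of the other lines (log2 0.92). The differences of C2orf72 and TINCR from HCT116 alone were not called (adjusted p = 0.0503 and 0.141). PC3 hypoxia replicate 1 was the highest of its group for 34 of the 39 more induced genes (87.2%), against 39.0% of all genes tested. Without it, ZNF114, TINCR and EHF were no longer called (adjusted p = 0.179, 0.122 and 0.12), and the genes responding more in PC3 fell from 48 to 9. They numbered 21 without PC3 normoxia replicate 1 or replicate 2 and 26 without normoxia replicate 3. What sets this library apart was not tested.

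More repression in PC3 was found for 9 genes, of which CCDC113, SNHG7, TSPYL4, FUBP1, ZNF280C and KLHL9 were expressed in every line. FUBP1, which binds single-stranded DNA upstream of MYC, was at 98.0, 109.7 and 94.2 CPM in normoxic and 41.8, 57.4 and 65.8 CPM in hypoxic PC3. In A549 it was at 146.3 to 175.7 and then 133.7 to 148.1 CPM, so the states overlapped there and not in PC3. KLHL9, a substrate adaptor of a ubiquitin ligase, was at 31.2, 27.9 and 35.3 and then 17.04, 18.1 and 21.0 CPM in PC3. The differences of the 6 genes ran from -0.997 for CCDC113 to -0.783 for KLHL9, with adjusted p from 0.0116 for TSPYL4 to 0.0406 for ZNF280C. None of the 6 was called without PC3 hypoxia replicate 1. Without hypoxia replicate 2 only TSPYL4 was called (adjusted p = 0.0434). Without hypoxia replicate 3 SNHG7 and ZNF280C were not called (adjusted p = 0.0789 and 0.0919). SNHG7 also fell in HCT116 (log2 -0.88, against -1.06 in PC3), and its PC3 difference was no longer called without T47D in the reference (adjusted p = 0.152). CCDC113 overlaps PRSS54 and SNHG7 overlaps DIPK1B on the other strand.

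Of the 12 genes that moved in opposite directions, CYP1B1 had the lowest adjusted p. It encodes a cytochrome P450 that is induced through the aryl hydrocarbon receptor, which shares the partner ARNT with HIF. CYP1B1 fell in PC3 from 51.2, 52.4 and 35.5 to 12.1, 14.5 and 11.5 CPM, and rose in T47D from 131.0, 118.0 and 181.1 to 352.4, 329.8 and 389.7 CPM. In A549 the states overlapped (49.96 to 59.8 and 42.2 to 58.9 CPM). The PC3 difference of -2.46 ± 0.26 (adjusted p = 3.67e-06) came from a log2 fold change of -1.87 in PC3 and 0.59 in the mean of the other lines. RMDN2 overlaps CYP1B1 on the other strand.

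THBS1, a matrix protein that restrains angiogenesis, had its highest normoxic level in PC3. It went there from 1455, 1750 and 1234 CPM to 508.0, 822.3 and 818.8 CPM, with no overlap, while T47D went from 335.4, 429.7 and 574.4 to 651.6, 843.3 and 585.8 CPM. Its difference was -1.59 ± 0.33 (adjusted p = 0.00954), and -1.37 (adjusted p = 0.081) without PC3 hypoxia replicate 1. FSIP1 overlaps THBS1 on the other strand. RUNX2, a regulator of bone formation, fell in PC3 from 9.65, 12.7 and 8.45 to 3.59, 5.58 and 5.81 CPM, and rose in HCT116, from at most 1.48 CPM to at least 2.07 CPM. Its log2 fold changes were 0.53 in A549 and -0.22 in T47D, and the PC3 difference of RUNX2 was no longer called without HCT116 in the reference (adjusted p = 0.164) or without PC3 hypoxia replicate 1 (adjusted p = 0.129). BCL7A, a subunit of SWI/SNF remodelling complexes, and TUFT1 had differences of -1.11 and -1.09.

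JAK2, a kinase of cytokine receptors, was the 1 gene expressed in every line that rose in PC3 and fell in the mean of the other lines. It was at 17.7, 16.1 and 15.4 CPM in normoxic and 32.7, 20.5 and 23.1 CPM in hypoxic PC3, and fell in T47D from 5.66, 6.49 and 5.75 to 4.79, 4.02 and 2.93 CPM. The difference was 1.08 ± 0.23 (adjusted p = 0.0116), and 0.88 (adjusted p = 0.081) without PC3 hypoxia replicate 1. The other genes of this direction, CAPN8 and CARD6, named after their values were seen, fell most in HCT116, where they had 0.1003 and 0.0747 CPM in normoxia and no count in hypoxia. The genes responding oppositely numbered 2 without PC3 hypoxia replicate 1, 7 without hypoxia replicate 2, 5 without normoxia replicate 1, 6 without normoxia replicate 2, 3 without normoxia replicate 3, 8 without A549 hypoxia replicate 2 and 20 without T47D hypoxia replicate 3.

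**Figure D5:**
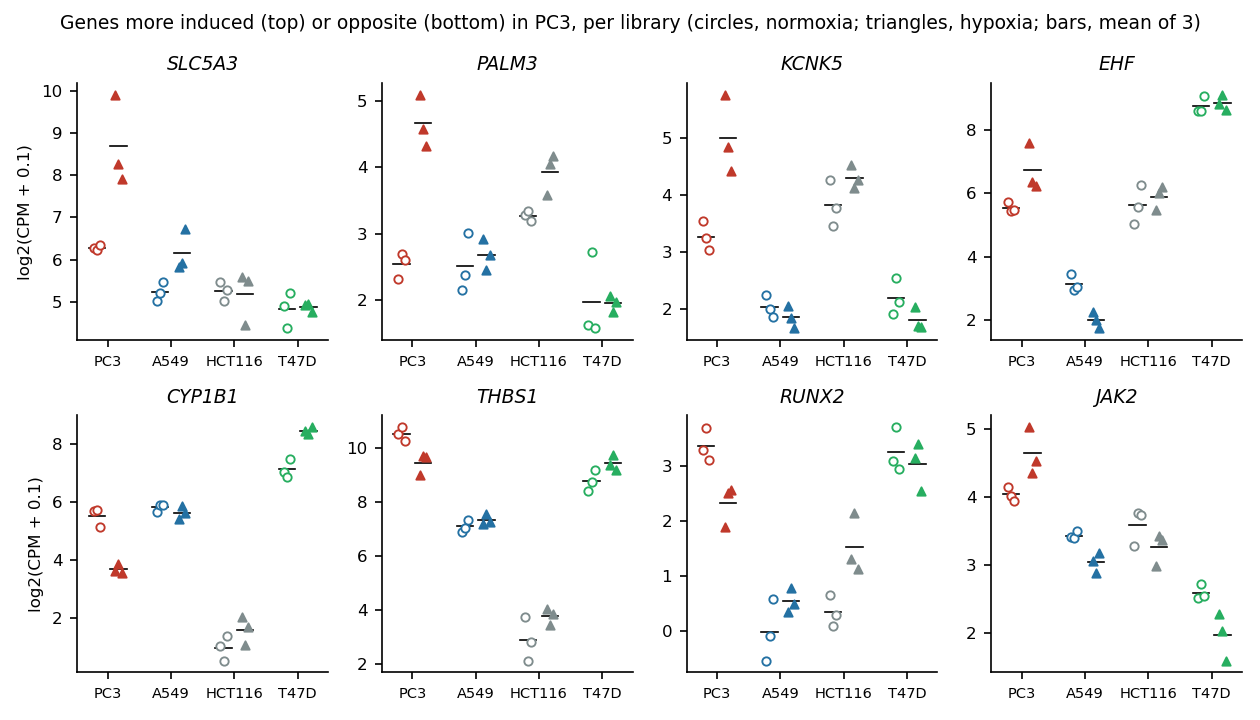
Log2(CPM + 0.1) in each library (y axis) by line (x axis) of 4 more induced genes (top) and 4 opposite genes (bottom), with circles for normoxia, triangles for hypoxia and bars for the mean of 3. PC3 (red) rises in SLC5A3, PALM3, KCNK5, EHF and JAK2, with hypoxia replicate 1 the highest triangle, and falls in CYP1B1, THBS1 and RUNX2.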

How the data were processed

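RNA-seq libraries of 4 cell lines in normoxia and hypoxia, 3 per line and state, were compared. According to the submitters' processing notes and the methods of the study, the authors trimmed reads with Trim Galore 0.3.3, aligned them to GRCh37/hg19 with HISAT2 2.05, removed non-unique alignments with Picard 2.0.1 and counted reads per gene with HTSeq 0.5.4p3. The deposited values are raw counts per gene symbol. Totals were 22698584 to 62850747 counts per library, and 3 counts corresponded to 0.0436 to 0.132 CPM. Samples were grouped by the labels.

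Counts were filtered (filterByExpr), normalised by TMM and fitted with edgeR 4.0.16 (R 4.3.3) in 1 quasi-likelihood model with 8 groups. Adjusted p-values are Benjamini-Hochberg values over 16089 genes. SE was derived from the F statistic. A gene responded oppositely if the PC3 response and the mean response of the other lines were both called with opposite signs, less if the difference opposed a called response of the other lines, and more if it followed a called PC3 response. CPM are TMM-normalised. Labels do not say that libraries came from separate cultures, so p-values measure the spread between these samples, which may be technical.

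Named genes had at least 1 CPM in the higher state of every line and a PC3 response outside the range of the other lines, and were the 8 with the largest difference per class (5 per direction for opposite genes). Members of lists were named where their list is described. The comparison, its members and the 23 lists were chosen with earlier results of these data known. Positions and exon overlaps were checked against GENCODE on GRCh37, and 93.4% of symbols matched a transcript. Promoters came from RefSeq (GRCh38.p14), with no coordinates converted. The procedure was tested on simulated data. Alternatives were DESeq2 1.42.0, limma 3.58.1 (voom), other scalings, filters, thresholds and reference lines, GC and length offsets, thinning, the replicate number as a block and leaving out libraries.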

Additional observations from a re-analysis of the deposited data

Results flagged for a closer look

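Each named gene met the rule that the hypoxia response in PC3 differed from that in the other lines by a test of the difference itself (edgeR's quasi-likelihood test, Benjamini-Hochberg). The values that follow are PC3 differences on the log2 scale. Less induction was found for CA9 (-8.04), ALDOC (-3.28), NDRG1 (-2.90), HK2 (-2.89), EGLN3 (-2.65), SPRY1 (-2.61), PDK1 (-2.56) and FAM115C (-2.43). Less repression was found for MROH6 (1.34), IFRD1 (1.33), EEF1E1 (1.21), NDUFAF5 (1.17), ENGASE (1.12), GULP1 (1.10), LSM10 (1.07) and GPR89A (1.07). More induction was found for SLC5A3 (2.36), PALM3 (1.93), KCNK5 (1.90), ZNF114 (1.83), LOC113230 (1.80), C2orf72 (1.77), TINCR (1.62) and EHF (1.59). More repression was found for CCDC113 (-0.997), SNHG7 (-0.982), TSPYL4 (-0.884), FUBP1 (-0.855), ZNF280C (-0.853) and KLHL9 (-0.783). SNHG7 fell in HCT116 as well, and its difference from HCT116 alone was -0.18 (adjusted p = 0.745). Opposite responses were found for CYP1B1 (-2.46), THBS1 (-1.59), RUNX2 (-1.58), BCL7A (-1.11), TUFT1 (-1.09) and JAK2 (1.08). Of these 36 genes, 8 were called in every setting run: CA9, ALDOC, NDRG1, HK2, EGLN3, SPRY1, PDK1 and CYP1B1.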

How the results depend on the processing

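No named gene changed direction in any of 18 other settings or with libraries left out, but the number of called genes moved widely. In the main analysis 219 genes were lower and 100 higher in PC3, 258 responded less, 48 more and 12 oppositely, and 1292 responded in PC3 and 8004 in the mean of the other lines. In the same order of lower, higher, less, more, opposite and PC3 response, DESeq2 gave 460, 260, 555, 120, 25 and 2050, limma voom with sample weights 2149, 2073, 3394, 519, 120 and 5396, and an adjusted p under 0.01 gave 93, 12, 92, 11, 2 and 354. T47D replicate 3 left out in both states, an alternative added after seeing the data, gave 439, 360, 679, 86, 26 and 2126. GC and length offsets gave 176 higher and 84 more. A fold over 1.5 gave 5 opposite genes and 4585 in the mean of the other lines. Without A549 in the reference 468 genes were lower, 313 higher, 692 less and 20 opposite, and without HCT116 134 were lower, 53 higher and 130 less. With the replicate block 167 were higher, 74 more and 24 opposite, and with GC and length offsets and the replicate block together 417 were lower, 317 higher, 565 less, 120 more and 32 opposite. The labels do not say that the numbers pair libraries, and same-numbered libraries deviated together with r over 0.1 in 6 of 12 pairs, although 24 of 24 libraries correlated best with their own number. With 1 library or 1 number left out, the counts ranged from 27 to 509 lower, 3 to 535 higher, 26 to 967 less, 2 to 61 more, 2 to 20 opposite, 77 to 1725 for PC3 and 5755 to 8314 for the mean of the other lines. The PC3 response numbered 238 without PC3 hypoxia replicate 1, 572 and 818 without hypoxia replicates 2 and 3, and 535 and 262 without normoxia replicates 1 and 3. The cause of these shifts was not tested. limma voom without sample weights gave 194 lower and 89 higher. Thinning every library to the smallest total gave 210 lower and 77 higher.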
